A study of Mus musculus with 10 samples.

Results

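The genes described here are 8 genes known from Müller glia, the radial glia of the retina, and from astrocytes: Glul, Aqp4, Aqp1, Vim, Gfap, Apoe, Crb1 and Clu. They were chosen by symbol: every probe of the deposited table whose single gene symbol in the platform annotation was one of these 8 names, which gave 7 probes of 6 genes among 33012 probes. Crb1 had 2 probes, Glul, Aqp1, Vim, Apoe and Clu had 1 each, and no probe was listed under Aqp4 or Gfap, which were not analysed here. RNA was measured on 10 single-channel Applied Biosystems arrays, 5 of adult retina and 5 of cortex taken at postnatal day 1. The retina RNA was a pool from 350 C57/B6 mice. The cortex RNA was a pool from 19 mice, which the sample descriptions call C57/B6 and the series text Swiss-Webster. The arrays of a tissue were repeats on its single pool, so every p-value and SD below measures the spread between arrays and none the spread between animals. Adult age went with retina and newborn age with cortex, so age and tissue cannot be told apart. If the cortex mice were Swiss-Webster, strain went with tissue too and cannot be told apart from it either.

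Müller cells span the retina and take up the glutamate released at its synapses, which glutamine synthetase turns into glutamine. They also move water and potassium, hold intermediate filaments of vimentin, and form with photoreceptors the apical junctions at which the crumbs protein sits. Astrocytes share much of this work, in the brain as in the optic nerve fibre layer, and in the newborn cortex they are only starting to be made from radial glia. Several of these genes are not restricted to glia: Apoe is also made by microglia and pigment epithelium, Vim by endothelium and connective tissue, Aqp1 by choroid plexus, red cells and some retinal neurons, Clu by neurons and epithelia, and Crb1 by photoreceptors. In such bulk RNA, fewer cells of a type and less RNA per cell cannot be told apart.

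Array medians before normalization lay at 835.5 to 986.7 intensity units on retina arrays and 1255 to 1341 on cortex arrays, so the log2 values were quantile-normalized. The photoreceptor markers separated the tissues as labelled: 8 of 8 measured were higher in retina, with a median difference of 9.71, and among 7 measured cortical neuron markers 6 were lower. Each difference is given as retina minus cortex in log2 units, with the standard error (SE) from limma, a linear model with a shared estimate of the spread. A probe was called when its Benjamini-Hochberg adjusted p over all 33012 probes was under 0.05 and the tissues differed by a factor of 2 or more. No detection calls were used, and 0 values of the table were at or below 0. The 95th percentile of 747 probes for olfactory receptors, at 10.77 in retina and 10.65 in cortex, served as a yardstick for dim signal.

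Of the 7 probes, 5 were called higher in retina, 0 were called lower and 2, those of Vim and Apoe, were not called. Over all probes 12.1% were called higher and 13.3% lower. These shares are also the background given for every list count below, and they include dim and unlisted probes. Of the 17867 probes with a mean above the median of all values in either tissue, 3414 were called higher and 3774 lower. Those are larger shares. A test against a 1.5-fold difference (limma treat, adjusted p under 0.05) called Apoe as well, 6 probes in all, beside 11.8% of all probes. The median difference of the 7 probes was 2.80, beside -0.01 over all probes. The order by size of the difference was Aqp1, Clu, Glul, Apoe and Vim. Crb1 has no set place in this order, because its cortex values lay below the yardstick for dim signal. After normalization the retina arrays lay above all cortex arrays for all 7 probes, as they did for 19.2% of all probes. All 7 probes varied less between retina arrays than the median probe, whose SD was 0.332, and 5 of them varied less between cortex arrays than the median probe there (SD 0.281). The exceptions were the 2 Crb1 probes in cortex, where both were below the yardstick. The spread was not compared with that of probes of like brightness.

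**Figure D1:**
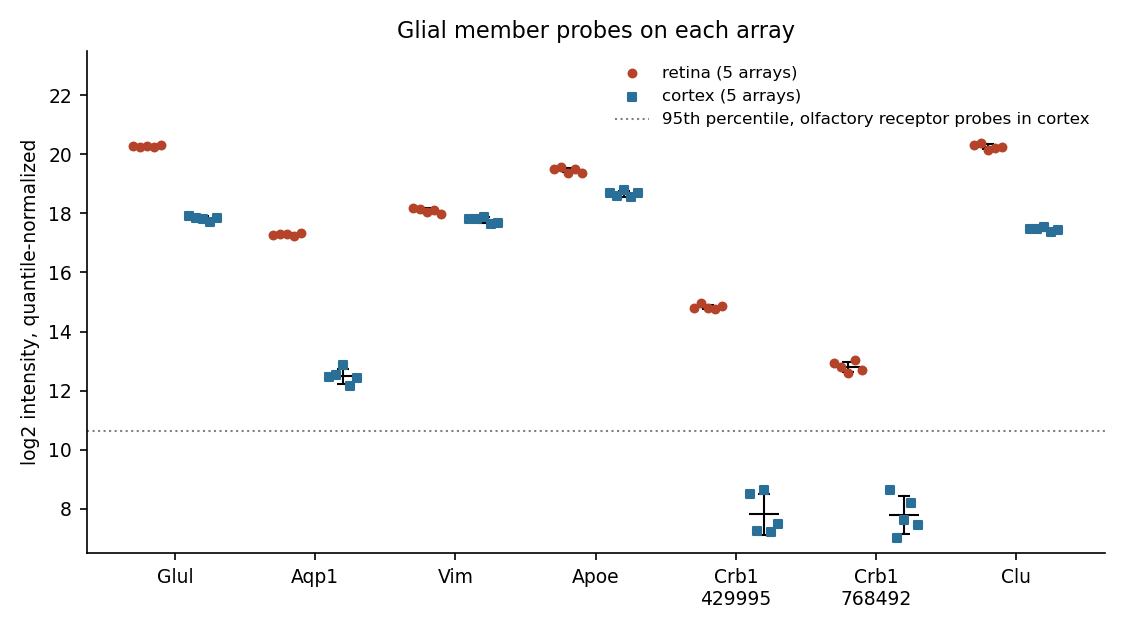
Quantile-normalized log2 intensity (vertical axis) of the 7 member probes on each array, with retina as circles and cortex as squares; black bars are the mean and SD over 5 arrays. The retina points lie above the cortex points for every probe, by the least for Vim, and only the cortex points of both Crb1 probes lie below the dotted line at 10.65.

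Promoters in RefSeq (GRCm38.p6), 250 bases before to 50 after a transcript start, are shown for the members with 1 entry, so that Vim can be read beside Glul, Aqp1 and Crb1, which were called higher. The capitals mark CCAAT and, where present, TATAAA, each on either strand. For Glul, Aqp1 and Vim that start is where the annotated gene begins, and for Crb1 it lies inside the gene, 2240 bases from where the annotated gene begins.
Glul, chr1:153899679-153899978, strand +: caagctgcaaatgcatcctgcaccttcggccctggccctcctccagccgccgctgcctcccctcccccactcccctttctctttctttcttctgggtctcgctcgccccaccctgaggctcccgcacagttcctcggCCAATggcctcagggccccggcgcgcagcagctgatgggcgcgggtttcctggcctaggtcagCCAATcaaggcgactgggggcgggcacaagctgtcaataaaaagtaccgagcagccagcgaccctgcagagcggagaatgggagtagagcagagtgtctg
Aqp1, chr6:55336049-55336348, strand +: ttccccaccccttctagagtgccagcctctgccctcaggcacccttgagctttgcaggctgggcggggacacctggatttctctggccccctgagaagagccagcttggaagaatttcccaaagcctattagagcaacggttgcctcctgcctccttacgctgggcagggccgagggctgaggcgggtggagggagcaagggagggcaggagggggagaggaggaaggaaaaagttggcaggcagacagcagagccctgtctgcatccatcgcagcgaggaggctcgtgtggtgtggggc
Crb1, chr1:139377027-139377326, strand -: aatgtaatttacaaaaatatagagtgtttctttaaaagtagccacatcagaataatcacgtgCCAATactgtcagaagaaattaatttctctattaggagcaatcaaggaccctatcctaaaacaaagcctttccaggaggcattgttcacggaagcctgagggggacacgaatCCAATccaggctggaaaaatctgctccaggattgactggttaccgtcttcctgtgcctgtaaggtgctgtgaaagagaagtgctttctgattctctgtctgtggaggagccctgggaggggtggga
Vim, chr2:13574061-13574360, strand +: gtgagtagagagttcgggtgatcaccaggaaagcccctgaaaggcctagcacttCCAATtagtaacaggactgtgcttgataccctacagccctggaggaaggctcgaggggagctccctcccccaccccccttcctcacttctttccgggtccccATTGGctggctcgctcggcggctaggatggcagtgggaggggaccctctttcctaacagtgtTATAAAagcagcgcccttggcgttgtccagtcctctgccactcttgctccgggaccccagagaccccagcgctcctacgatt
Glul held CCAAT at positions 138 and 201 of its 300 bases, Crb1 at 63 and 175, Vim at 55 and, on the reverse strand, at 157, and Aqp1 had no match. TATAAA was found in Vim alone of the 4, at position 219. Of 32851 promoter entries of this length, 37.4% held CCAAT and 13.6% held TATAAA, both strands searched. Nuclear factor I proteins bind a motif with the core TTGGC. It was found on at least 1 strand in all 4, beside 46.7% of all entries; on the reverse strand it can overlap CCAAT, as it did at both Glul matches and at 1 of Crb1, and the forward TTGGC of Vim at position 158 overlaps its reverse-strand CCAAT match. TTCNNNGAA, a STAT motif, and ACAAT, a SOX motif core, were found in Crb1 alone of the 4, beside 8.3% and 31.0% of all entries. Apoe had 3 entries, of which TATAAA was in 1 and CCAAT in 0, and none was printed. Clu, which was also called higher, had no promoter entry in the sources used here and is missing from this comparison. A match describes these letters and is not shown to be a site in use.

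Glul encodes glutamine synthetase, the enzyme by which Müller cells and astrocytes detoxify ammonia and glutamate (chromosome 1, 153899929 to 153909723, GRCm38.p6). Its normalized log2 intensity was 20.27, 20.25, 20.28, 20.23 and 20.32 on retina arrays 1 to 5, against 17.91, 17.84, 17.82, 17.71 and 17.83 on cortex arrays 1 to 5. The arrays of each tissue lay close together and the lowest retina array stood 2.32 above the highest cortex array. Glul was higher in retina by 2.45 (SE 0.055), a 5.45-fold difference (limma with Benjamini-Hochberg adjusted p = 6.64e-16). Before normalization the deposited intensity lay between 1088474 and 1203815 on retina arrays and between 250873 and 294308 on cortex arrays.

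Other genes of glutamate and glutamine handling did not move together. Of 22 listed, 18 had a probe, of which 4 were higher in retina, 3 lower and 11 not called, with a median of -0.17. Among all probes 12.1% were higher and 13.3% lower. Slc38a3, an exporter of glutamine in astrocytes and Müller cells, was higher by 3.84 (SE 0.066). Slc1a2, the glutamate transporter GLT-1, averaged 13.59 ± 0.06 over the retina arrays and 10.05 ± 0.22 over the cortex arrays (SD, n = 5), a difference of 3.54 that rests on a dim cortex value. Got1, the cytosolic aspartate aminotransferase gene, and Bcat1, of branched-chain amino acid transamination, were higher by 2.59 and 1.21. Slc38a5, another glutamine transporter gene, was lower by the most (-3.92, SE 0.090), followed by the neutral amino acid transporter gene Slc1a4 (-2.20) and the glutamate dehydrogenase gene Glud1 (-1.26). Without retina replicate 4 the lower genes numbered 5. Slc1a3, the glutamate transporter of Müller cells and astrocytes also called GLAST, did not share the difference of Glul and averaged 13.66 ± 0.10 over retina arrays and 14.50 ± 0.12 over cortex arrays (-0.84, short of the 2-fold minimum).

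Aqp1 encodes the water channel aquaporin-1 (chromosome 6, 55336299 to 55348555). Its normalized log2 intensity was 17.25, 17.30, 17.29, 17.22 and 17.35 on retina arrays 1 to 5, against 12.45, 12.54, 12.87, 12.17 and 12.43 on cortex arrays 1 to 5. Cortex array 3 was the highest of its tissue, still 4.35 below the lowest retina array. Aqp1 was higher in retina by 4.79 (SE 0.091), a 27.6-fold difference (limma with Benjamini-Hochberg adjusted p = 8.41e-17). Both tissues lay above the olfactory receptor yardstick. Choroid plexus and red cells also make Aqp1. Of 8 measured choroid plexus markers, 4 were higher in retina and 1 lower, and their intensities summed to 653434 to 707111 per retina array and 849164 to 981268 per cortex array. These sums rest mostly on Ttr, at 18.34 in retina and 19.73 in cortex, and in retina also on Otx2, at 18.22. Otx2, which photoreceptors and bipolar cells also use, was higher by 5.20, and Folr1, Clic6 and Kl by 1.67, 1.29 and 1.01, with Clic6 dim in cortex and Kl dim in both tissues. Without cortex replicate 3 the higher markers numbered 2, and without retina replicate 5 the lower ones 2. Ttr, the transthyretin gene, was lower in retina (-1.38, SE 0.058). Of 5 measured erythroid markers, 0 were higher and 2 lower, with sums of 33963 to 41772 in retina and 125506 to 162166 in cortex. The other 3 erythroid markers, Slc4a1, Epb42 and Klf1, were dim in both tissues. The part of choroid plexus and of red cells in the Aqp1 difference was not tested.

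The other aquaporins were mostly dim. All 10 listed had a probe, of which 3 were called higher in retina, 0 lower and 7 not called, with a median of 0.59, and 5 of the 10 were below the yardstick in both tissues. Aqp6 averaged 11.03 ± 0.15 on retina arrays and 8.10 ± 0.22 on cortex arrays (SD, n = 5), Aqp5 was higher by 1.52 (SE 0.24), and Aqp2, dim in both tissues, by 1.35 (SE 0.48), and Aqp5 and Aqp6 were dim in cortex. The brighter Aqp11 and Aqp12, at 12.76 and 13.18 in retina and 13.25 and 13.23 in cortex, were not called. Of 14 measured partners of water and potassium transport, 2 were higher, 2 lower and 10 not called, with a median of -0.20. These counts are near the shares over all probes, 12.1% higher and 13.3% lower. Atp1b2, a sodium pump subunit of glia, was higher by 2.65 (SE 0.058), and Kcnj12, an inward rectifier potassium channel gene, by 1.23 (SE 0.16). The potassium channel gene Kcnk2 was lower in retina (-2.94, SE 0.17) and the dystroglycan gene Dag1 also (-1.32, SE 0.34), both from dim retina values. Kcnj10, the main potassium channel of Müller cells, had no listed probe and was not analysed here.

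Vim encodes vimentin, an intermediate filament protein of Müller cells, immature astrocytes, radial glia and mesenchymal cells (chromosome 2, 13574311 to 13582826). Its normalized log2 intensity was 18.19, 18.16, 18.03, 18.11 and 17.96 on retina arrays 1 to 5, against 17.82, 17.82, 17.87, 17.65 and 17.68 on cortex arrays 1 to 5. The groups did not overlap, but only 0.10 separated the lowest retina array from the highest cortex array. The difference of 0.32 (SE 0.061, 95% interval 0.19 to 0.45) had a limma Benjamini-Hochberg adjusted p of 0.00023 and was short of the 2-fold minimum, so Vim was not called. Its direction rested on the scaling: as deposited, the intensity ran over 217275 to 258724 on retina arrays and 235982 to 294644 on cortex arrays, overlapping, and the difference was -0.21 (limma with Benjamini-Hochberg adjusted p = 0.0332). The median of all probes without normalization was -0.41, so Vim lay above that shift.

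Cells other than glia contribute vimentin, and their markers were lower in retina or mixed. Of 10 measured fibroblast and meninges markers, 7 were lower, among them Col3a1 (-6.53), Ogn (-3.05), Lum (-2.98) and Col1a2 (-2.89), of which all but Col1a2 were dim in retina, and 3 were not called, with sums of 39815 to 46104 in retina and 172783 to 180166 in cortex. Of 11 measured endothelial markers, 3 were higher and 3 lower, with a median of -0.72. Their sums were 110099 to 122667 in retina and 97814 to 102991 in cortex. The retina sum rests mostly on Kdr, at 16.15 in retina and 13.98 in cortex. The endothelial split moved with the scaling, to 2 higher and 6 lower without normalization and 3 higher and 5 lower with a common 75th percentile. Their part in the Vim values was not tested.

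Other intermediate filament genes were mixed. Of 17 listed, 14 had a probe, of which 3 were higher, 2 lower and 9 not called, with a median of 0.48. The shares over all probes were 12.1% higher and 13.3% lower. Krt18, a keratin gene of simple epithelia, was higher by 5.17 (SE 0.17), from a dim cortex value. The neurofilament genes Nefh and Nefl, of large axons such as those of ganglion cells, were higher by 4.37 (SE 0.095) and 1.29 (SE 0.064). The lamin gene Lmna was lower in retina (-1.27, SE 0.073), and Ina, the internexin gene of developing neurons, also (-1.19, SE 0.049). Synm, the synemin gene, whose protein assembles with vimentin, was at 0.63 (SE 0.086), and the desmin gene Des was dim in both tissues. Of 7 measured filament linkers and regulators, Stat3, an activator of Gfap, was higher (1.03, SE 0.15), and 3 were not called. The 3 lower were the nuclear factor I genes Nfib (-3.41, SE 0.069), Nfix (-2.65, SE 0.072) and Nfia (-1.31, SE 0.062), whose proteins promote the start of astrocyte formation. The call of Stat3 was lost without normalization, with a common 75th percentile and on leaving out retina replicate 3, retina replicate 4 or cortex replicate 4.

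**Figure D2:**
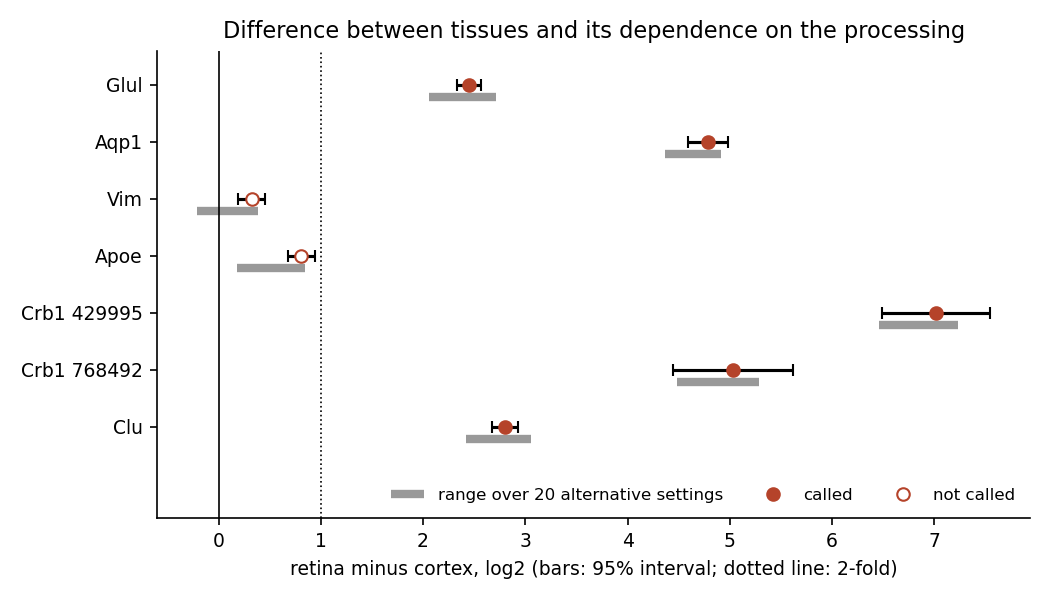
Difference of each member probe, retina minus cortex on the log2 scale (horizontal axis), with its 95% interval; filled circles were called, open circles were not, and grey bars span 20 alternative settings. The intervals of Vim and Apoe end below the dotted 2-fold line, and the grey bar of Vim alone crosses 0, reaching -0.21.

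Apoe and Clu encode secreted carriers of lipid, apolipoprotein E and clusterin (apolipoprotein J), which glia release in lipoprotein particles. Apoe (chromosome 7, 19696244 to 19701310) was at 19.49, 19.56, 19.38, 19.50 and 19.38 on retina arrays 1 to 5, against 18.68, 18.59, 18.78, 18.54 and 18.67 on cortex arrays 1 to 5. The lowest retina array stood 0.60 above the highest cortex array. The difference of 0.81 (SE 0.063, 95% interval 0.68 to 0.94), or 1.75-fold, had a limma Benjamini-Hochberg adjusted p of 6.74e-09 but was short of the 2-fold minimum. Without normalization the deposited intensities overlapped, at 547690 to 653779 in retina and 460367 to 587514 in cortex, and the difference was 0.18 (limma with Benjamini-Hochberg adjusted p = 0.101).

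Clu (chromosome 14, 65968483 to 65981548) was at 20.30, 20.39, 20.15, 20.20 and 20.26 on retina arrays 1 to 5, against 17.46, 17.47, 17.54, 17.38 and 17.43 on cortex arrays 1 to 5. Every retina array lay at least 2.61 above every cortex array. Clu was higher in retina by 2.80 (SE 0.059), a 6.98-fold difference (limma with Benjamini-Hochberg adjusted p = 2.82e-16). The difference of Clu exceeded that of Apoe. Clu minus Apoe within an array, from quantile-normalized values, averaged 0.80 ± 0.07 on retina arrays and -1.19 ± 0.06 on cortex arrays (SD, n = 5). These differed by 1.99 (exact 2-sided permutation p = 0.00794, the smallest that 252 assignments can give). A constant scaling of an array leaves such a difference unchanged, but quantile normalization does not. Without normalization the tissues differed by 2.24 (exact 2-sided permutation p = 0.00794).

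**Figure D3:**
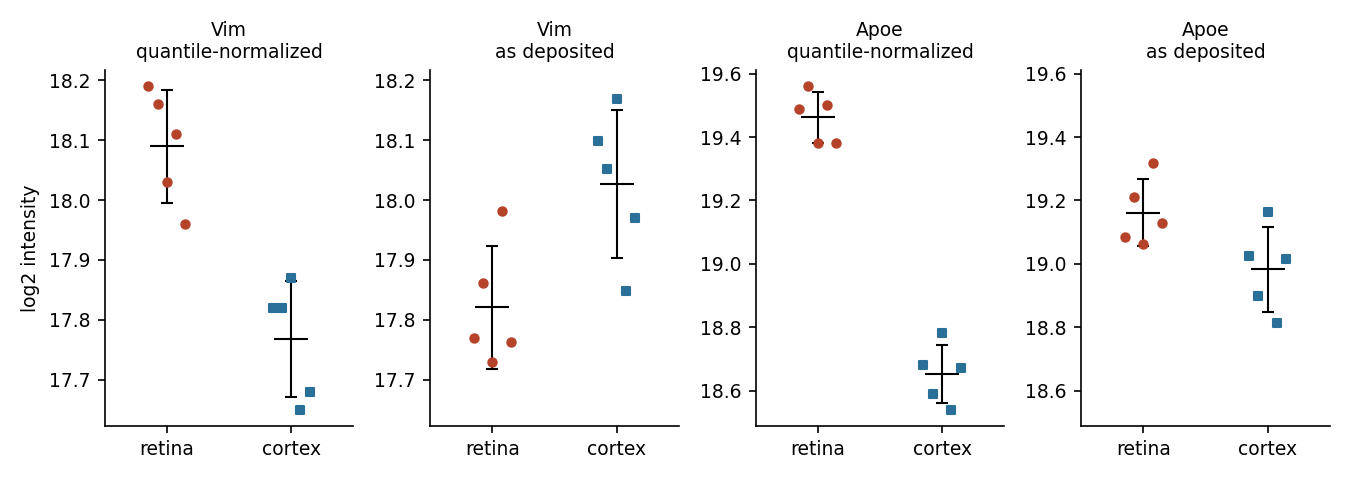
Log2 intensity (vertical axis) of Vim and Apoe on the retina arrays (circles) and cortex arrays (squares), quantile-normalized and as deposited, with the mean and SD over 5 arrays as black bars. For Vim the retina mean is 18.09 and the cortex mean 17.77 after normalization but 17.82 and 18.03 as deposited, and for Apoe the difference shrinks to 0.18 as deposited.

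Of 27 listed genes of other lipid carriers, their receptors and their regulators, 19 had a probe, and 8 were higher in retina, 2 lower and 9 not called, with a median of 0.56. The 4 largest differences toward retina were Abcg1 (2.54, SE 0.069) and Abcg4 (1.58, SE 0.070), both exporters of cholesterol onto lipoprotein particles, the lipoprotein receptor gene Scarb1 (2.25, SE 0.067) and Srebf1 (1.83, SE 0.045), a transcription factor of fatty acid synthesis. Among the rest of the 8 were Vldlr (1.36), a receptor of apolipoprotein E, and Sorl1 (1.26), a sorting receptor. The apolipoprotein D gene Apod was lower in retina (-3.94, SE 0.12), where it was dim, and the endocytic receptor gene Lrp1 also (-1.39, SE 0.089). Abca1, the other main exporter of cholesterol to apolipoproteins, was at -0.13 (SE 0.14). Microglia also make Apoe: of 6 measured microglia markers 1, Aif1, dim in both tissues, was lower and 5 were not called, with sums of 25867 to 28432 in retina and 33088 to 37800 in cortex. Without cortex replicate 1, 2 microglia markers were lower. Pigment epithelium makes both carriers, and of 10 of its markers measured 7 were higher in retina and 1 lower. The largest differences were those of Rgr (7.29), Rpe65 (6.81), Rrh (5.86) and Dct (5.21), all 4 dim in cortex. The marker sums were 496216 to 540668 in retina and 824250 to 958816 in cortex. Both sums rest mostly on Ttr, the 1 lower marker, at 18.34 in retina and 19.73 in cortex, which is also a choroid plexus marker. Best1 and Tyr were dim in both tissues and not called. The part of pigment epithelium in the Apoe and Clu values was not tested.

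Crb1 encodes crumbs homologue 1, an apical polarity protein at the outer limiting membrane, where Müller cells and photoreceptors adhere (chromosome 1, 139176649 to 139379316). Probe 429995 was at 14.79, 14.95, 14.81, 14.76 and 14.85 on retina arrays 1 to 5, against 8.50, 7.25, 8.63, 7.20 and 7.48 on cortex arrays 1 to 5. Probe 768492 was at 12.93, 12.80, 12.58, 13.02 and 12.71 in retina and at 8.64, 7.0, 7.61, 8.20 and 7.45 in cortex, again in the order of the arrays. Retina arrays agreed closely for both, whereas cortex arrays spread over 1.43 and 1.63 log2 units and all lay below the yardstick of 10.65. The differences were 7.02 (SE 0.25, limma with Benjamini-Hochberg adjusted p = 2.13e-13) for probe 429995 and 5.03 (SE 0.28, limma with Benjamini-Hochberg adjusted p = 7.35e-11) for probe 768492. The probes thus had the same call and direction, but their sizes depend on cortex values not shown to exceed background. Photoreceptor markers, whose cells also make Crb1, were higher in all 8 measured, with sums of 7378776 to 7978830 in retina and 8247 to 11142 in cortex, and their part in the Crb1 difference was not tested.

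Of 23 listed genes of the crumbs complex and the junctions it borders, 18 had a probe, and 7 were higher in retina, 1 lower and 10 not called, with a median of 0.10. Among all probes 12.1% were higher and 13.3% lower. Mpp4, a scaffold of photoreceptor terminals, was higher by 10.69 (SE 0.38), from a dim cortex value. Epb41l5, a crumbs-binding protein gene also dim in cortex, was higher by 2.87 (SE 0.22), Mpdz, a scaffold related to Patj, by 2.27 (SE 0.095), and Dlg1 by 1.57 (SE 0.062). Mpp5, the direct partner of crumbs proteins also called Pals1, averaged 13.33 ± 0.13 on retina arrays and 11.86 ± 0.12 on cortex arrays (SD, n = 5) and was higher by 1.47. Patj, which completes that core complex, was at 0.23 (SE 0.10) and was not called. Cdh2, the N-cadherin gene of neuroepithelial junctions, was lower in retina (-1.38, SE 0.069); on its dimmer probe this call was lost. Without retina replicate 3 or without cortex replicate 3, 2 genes were lower.

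Beyond the members, other genes known from Müller glia were mostly higher in retina, and those known from astrocytes were divided. Of 17 measured further Müller glia genes, 11 were higher, 1 lower and 5 not called, with a median of 1.46. Abca8a, a lipid transporter gene, and Car2, a carbonic anhydrase gene, were both higher by 5.02, Abca8a from a dim cortex value, Car14, another carbonic anhydrase gene, by 4.90, and Gpr37, a receptor gene, by 3.80. Rlbp1, the retinaldehyde-binding protein of Müller cells and pigment epithelium, averaged 18.40 ± 0.20 on retina arrays and 15.25 ± 0.09 on cortex arrays (SD, n = 5). The homeobox gene Lhx2 was lower (-1.41, SE 0.074), and Sox9, a glial transcription factor, was at -0.65 (SE 0.15). Of 19 measured further astrocyte genes, 4 were higher, 8 lower and 7 not called, with a median of -0.80. Besides Slc1a2, these 4 were Aldoc, an aldolase gene (2.68, SE 0.055), the metallothionein gene Mt1 (1.32, SE 0.067) and Mlc1 (1.09, SE 0.053). The lowest were Acsbg1, of fatty acid activation (-5.31, SE 0.47), Bcan, of the extracellular matrix (-5.25, SE 0.15), the neurotensin receptor gene Ntsr2 (-3.83, SE 0.28) and the connexin gene Gjb6 (-3.81, SE 0.20), all dim in retina. Gja1, the main astrocyte connexin gene, also dim in retina, averaged 9.61 ± 0.49 on retina arrays and 13.02 ± 0.13 on cortex arrays, and Aldh1l1 was lower in retina (-1.75, SE 0.087). Whether the Müller glia list and the astrocyte list differ was not tested.

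Radial glia genes, of which Vim is one, leaned toward the newborn cortex: of 12 measured, 3 were higher in retina, 7 lower and 2 not called, with a median of -1.15. Fabp7 (-6.80, SE 0.053), Emx2 (-4.30, SE 0.27, dim in retina), the matrix gene Tnc (-2.72, SE 0.072) and Sox3 (-1.34, SE 0.15) were lowest, while Prom1 (6.58, SE 0.20), which photoreceptors use in their discs, Pax6 (4.33, SE 0.090), which amacrine cells keep, and Msi1 (1.73, SE 0.22) were higher, Prom1 and Msi1 from dim cortex values. Genes linked to reactive glia, the state in which Gfap and Vim increase after injury, were mostly higher in retina: of 16 measured, 10 were higher, 1 lower and 5 not called, with a median of 1.33. Edn2, an endothelin gene, averaged 15.13 ± 0.12 on retina arrays and 8.82 ± 1.03 on cortex arrays (SD, n = 5). Lcn2 (4.13, SE 0.30), the ceruloplasmin gene Cp (3.88, SE 0.35) and the trophic factor gene Cntf (3.51, SE 0.25) followed, all from dim cortex values. Edn2, Serpina3n (2.10), S1pr3 (1.94) and Cd44 (1.18) were dim in cortex too. Only Cebpd (2.18), Tspo (1.48) and Stat3 (1.03) were higher with both tissues above the yardstick. Of the 5 not called, 4 were dim in both tissues. The endothelin receptor gene Ednrb was lower (-3.31, SE 0.14), from a dim retina value, and Socs3, a feedback inhibitor of STAT3, was at -0.18 (SE 0.066).

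**Figure D4:**
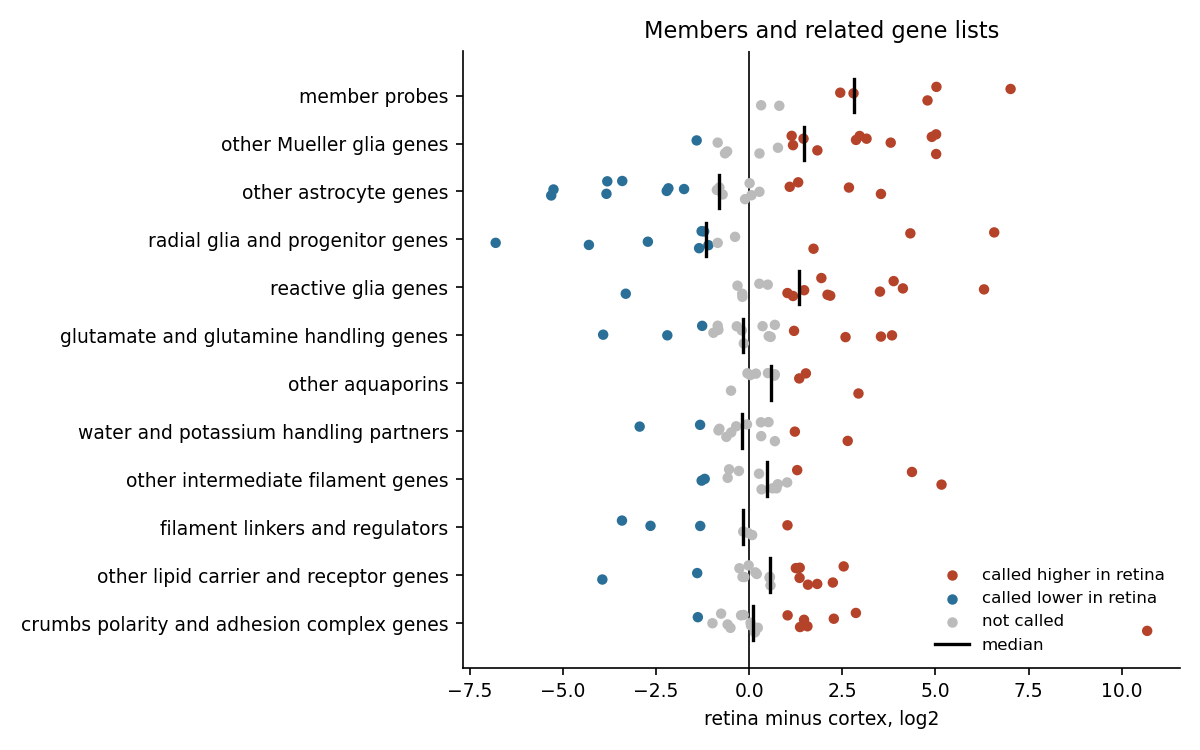
Difference of each gene, retina minus cortex on the log2 scale (horizontal axis), for the 7 member probes and 11 related gene lists; red points were called higher in retina, blue points lower, grey points were not called, and black ticks are medians. The members, the further Müller glia genes (median 1.46) and the reactive glia genes (median 1.33) lie mostly right of 0, and the astrocyte (median -0.80) and radial glia genes (median -1.15) spread to both sides.

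The genes most like each member were sought among 8962 probes with 1 symbol that were brighter than the median, by the root mean square distance over the 10 arrays between log2 values centred on their own means. With only 2 tissues, this distance mainly compares the size of the difference between them. Glul was nearest to Rab28 (distance 0.067, difference 2.47) and Dhrs7 (0.070, 2.39), Aqp1 to Ier3 (0.096, 4.80) and Alpl (0.152, 4.93), and Clu to Eno2 (0.045, 2.84) and Elovl4 (0.052, 2.75). Vim was nearest to Rpl26 (0.032, 0.31) and Tmem108 (0.033, 0.32), and Apoe to Fbxo38 (0.032, 0.85) and Lrpap1 (0.047, 0.82). Crb1 was nearest to the cone genes Opn1mw (0.225, 7.09) and Gnat2 (0.414, 7.64), but its own difference rests on cortex values below the yardstick, so this likeness is not established.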

How the data were processed

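RNA from 2 pools was labelled with digoxigenin and read by chemiluminescence, per the labels' protocols. The authors deposited linear intensity values for 33012 probes on 10 arrays; scanner software, background correction and normalization are not given in the sources used here. Groups and replicate numbers came from the sample titles, in which retina carries an unexplained "P1"; its adult age is from the descriptions and series text. Probes were named from the platform annotation (14411 with 1 symbol, 247 with several, 18354 unlisted). Log2 values were quantile-normalized and fitted with limma 3.58.1 in R 4.3.3 (lmFit, eBayes with an intensity trend, 2-sided, no covariates, Benjamini-Hochberg over all probes). On simulated data the fit called 55 of 100 probes changed by 1.5 log2 units and 98 of 100 changed by 3. Not called therefore does not by itself mean less than a 2-fold difference. The probe with the highest mean stood for a gene in lists. Members and the 21 lists were chosen with earlier results of these data known. Named were all member probes, up to 4 called genes per list and direction with the largest difference, and the 2 genes most like each member; any other gene was named after its values were seen. Of 3 planned pairs of members, only Clu and Apoe both had a probe. Same-numbered arrays were not paired by any label. The number of arrays limits the precision of the array means. With a single pool per tissue, the spread between animals was not measured.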

Additional observations from a re-analysis of the deposited data

How the results depend on the processing

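Of 20 alternatives (scaling, offset, dim-probe filter, variance model, call rule, replicate block, single arrays left out), none ended a call of Glul, Aqp1, Clu or either Crb1 probe, and 5 member probes were called higher in each except the 1.5-fold treat test. That test called Apoe at its difference of 0.81 (limma treat with Benjamini-Hochberg adjusted p = 0.00584). Without normalization Vim reversed to -0.21, and 2474 probes were called higher and 7621 lower in retina, against 3987 and 4392, because the arrays' own medians then stay in the values. Glul ranged from 2.06 to 2.71, Clu minus Apoe from 1.97 to 2.24 and, on leaving out single arrays, Vim from 0.29 to 0.36 and Apoe from 0.78 to 0.85. Also without normalization, higher calls went to 2 instead of 4 astrocyte genes, 4 instead of 8 lipid carrier genes and 1 instead of 2 water and potassium partners, and lower calls to 3 instead of 1 Müller glia genes, 7 instead of 3 glutamate genes, 4 instead of 2 water and potassium partners and 4 instead of 1 crumbs complex genes. The same number as a block (replicate block) left Vim at 0.32 (SE 0.055), Apoe at 0.81 (SE 0.068) and every member call as it was. Same-numbered arrays correlated at -0.0202 to 0.0288 in their deviations, and 3 of 5 retina arrays correlated best with their own number. These values do not settle whether same-numbered arrays belong together. Of 882 list counts under an alternative, 850 stayed within 1.5 times, and the cause was not tested for the other 32. Without detection calls, the size of the Crb1 differences and of others from dim values in either tissue is limited by background.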

Other observations

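Markers of oligodendrocytes and of lens were also measured, and the part of these cells in the member values was not tested. Of 8 oligodendrocyte markers, 4 were lower in retina and 4 not called, led by the lineage gene Olig1 (-4.41, SE 0.37, dim in retina), with summed intensities of 7202 to 8435 in retina and 16145 to 18681 in cortex. Among its myelin genes Mag, Mog and Cnp were dim in both tissues, and Mbp, at 11.33 in retina and 11.81 in cortex, was above the yardstick in both and not called. Of 5 measured lens markers, the crystallin genes Cryaa (6.71, SE 0.29) and Crygs (6.48, SE 0.13) were higher in retina from dim cortex values, while the lens genes Gja3 (0.28), Mip (0.03) and Bfsp1 (-0.58) were dim in both tissues and not called, with sums of 56009 to 68319 in retina and 2443 to 3291 in cortex.

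Among 14 sets of 5 repeat arrays (7 probes in 2 tissues), no array of a member stood apart by Dixon's test for 5 values. The set with the largest gap was the cortex set of Glul, where array 4 was lowest at 17.71, with a gap of 0.547 of the range against a critical value of 0.71.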
